A study of Danio rerio with 15 samples.

Results

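The proteasome genes of the zebrafish embryo were followed from the 16-cell stage to late gastrulation, with and without Dicer and with and without injected miR-430. They were taken from an Affymetrix Zebrafish array as the probe sets whose single gene symbol on the platform begins with psma, psmb, psmc, psmd, psme, psmf or psmg. This gave 61 probe sets of 50 genes among 15617 probe sets on the array, of which 15502 measure transcripts and 115 are controls. A probe set is a group of short oligonucleotides that together give 1 value for a transcript. All 61 matched a gene in the RefSeq table of the GRCz12tu assembly, and 8 genes had more than 1 probe set. The 6 probe sets of psme3ip1 and psmc3ip meet the naming rule only by their prefix: psme3ip1 encodes a partner of the activator Psme3, and psmc3ip a factor of meiotic recombination. The remaining 55 probe sets belong to 48 genes of the proteasome, its activators, its inhibitor and its assembly chaperones.

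The proteasome is the protease of the cytosol and nucleus that destroys proteins marked with ubiquitin chains. Its 20S core is a barrel of alpha-subunit rings (psma genes) around beta-subunit rings (psmb genes), and the proteolytic sites lie in the beta rings. The 19S cap recognises ubiquitin, unfolds the substrate with a ring of ATPases (psmc genes) and holds the non-ATPase subunits (psmd genes) that bind and remove ubiquitin. In animal embryos the first divisions run on proteins and messenger RNAs laid down in the egg, and maternal proteins and mRNAs are cleared as the zygotic genome takes over.

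The series holds 15 arrays in 6 groups. Wild-type embryos, labelled as strain TLAB, a label not given for the other groups, were taken at the 16-cell stage (n = 2) and at 50% epiboly (n = 1). Uninjected wild type at 9 h after fertilisation and uninjected MZdicer at 9 h had 3 arrays each, and so had both genotypes after injection of miR-430. MZdicer embryos lack both maternal and zygotic Dicer, the nuclease that releases mature microRNAs from their precursors, and miR-430 is a microRNA family made from the onset of zygotic transcription. Injection was at the one-cell stage. The labels give no age for the injected embryos and describe no control injection. Effects of miR-430, of being injected and of a possible difference in age therefore cannot be told apart. Each array received RNA of 20 whole embryos, so fewer cells of a type and less RNA per cell cannot be told apart either. Reverse transcription started from an oligo(dT) primer, and the amount of a transcript and the state of its poly(A) tail therefore cannot be told apart in any value below. No label says that the replicates came from separate clutches, and the p-values then measure only the spread between these arrays, which may be technical.

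Levels are intensities after quantile normalisation, which gives all arrays the same distribution, and they are compared only within a probe set. Changes are differences of group means of log2(intensity + 16), given with their standard error (SE). A probe set was called when its adjusted p from limma, corrected over all 15502 probe sets, was under 0.05. Correlations between arrays of a group ranged from 0.983 to 0.996. The stage labels held against their markers: the summed level of 6 maternal transcripts was 38472 to 38849 on the 16-cell arrays and 822 to 877 in wild type at 9 h, while 7 gastrula transcripts summed to 243 to 280 and to 21383 to 21444 on the same arrays. Zar1 of the maternal list changed less, from 311 and 302 to 205, 234 and 216. In the same groups 4 transcripts of later tissues, which 9 h embryos should lack, summed to 648 to 718 and to 922 to 1092. Singly they differed: at 9 h gfap read 10.1, 8.24 and 15.7, ckma 146, 155 and 116, and ins 512, 645 and 613. Ins read 272 and 301 at the 16-cell stage. Transcripts taken as absent thus reach the values of dim members such as psme1, psmb12 and psmb13a. The level of such a member does not show that it was expressed. No marker tests the injection label. The dicer1 probe set read 444 to 499.7 in uninjected wild type and 290 to 314 in uninjected MZdicer. Of the 61 members, 12 lie below the median of all probe sets by mean level, among them those of psmb8a, psmb9a, psmb12, psmb13a and psme1.

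Most proteasome transcripts were lower at the 16-cell stage than at 9 h. Of the 61 probe sets, 46 were lower and 8 higher at the 16-cell stage, and 7 were not called. Over all probe sets tested, 35.6% were lower and 40% higher. The median log2 change of the members was -0.98, against 0.08 over all probe sets. With 1 probe set a gene, 32 of the 33 genes of the 20S core and 19S cap were lower at the 16-cell stage and none was higher, with a median of -1.68. Of these 33, 22 were at least 2-fold lower, a size reached by 19.4% of all probe sets. All 33 changes were negative. With arrays centred on their medians in place of quantile normalisation, 30 of the 33 were lower and psmc4 had a positive change (0.09, adjusted p = 0.271). Without 16-cell replicate 2, 5 members were higher.

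**Figure D1:**
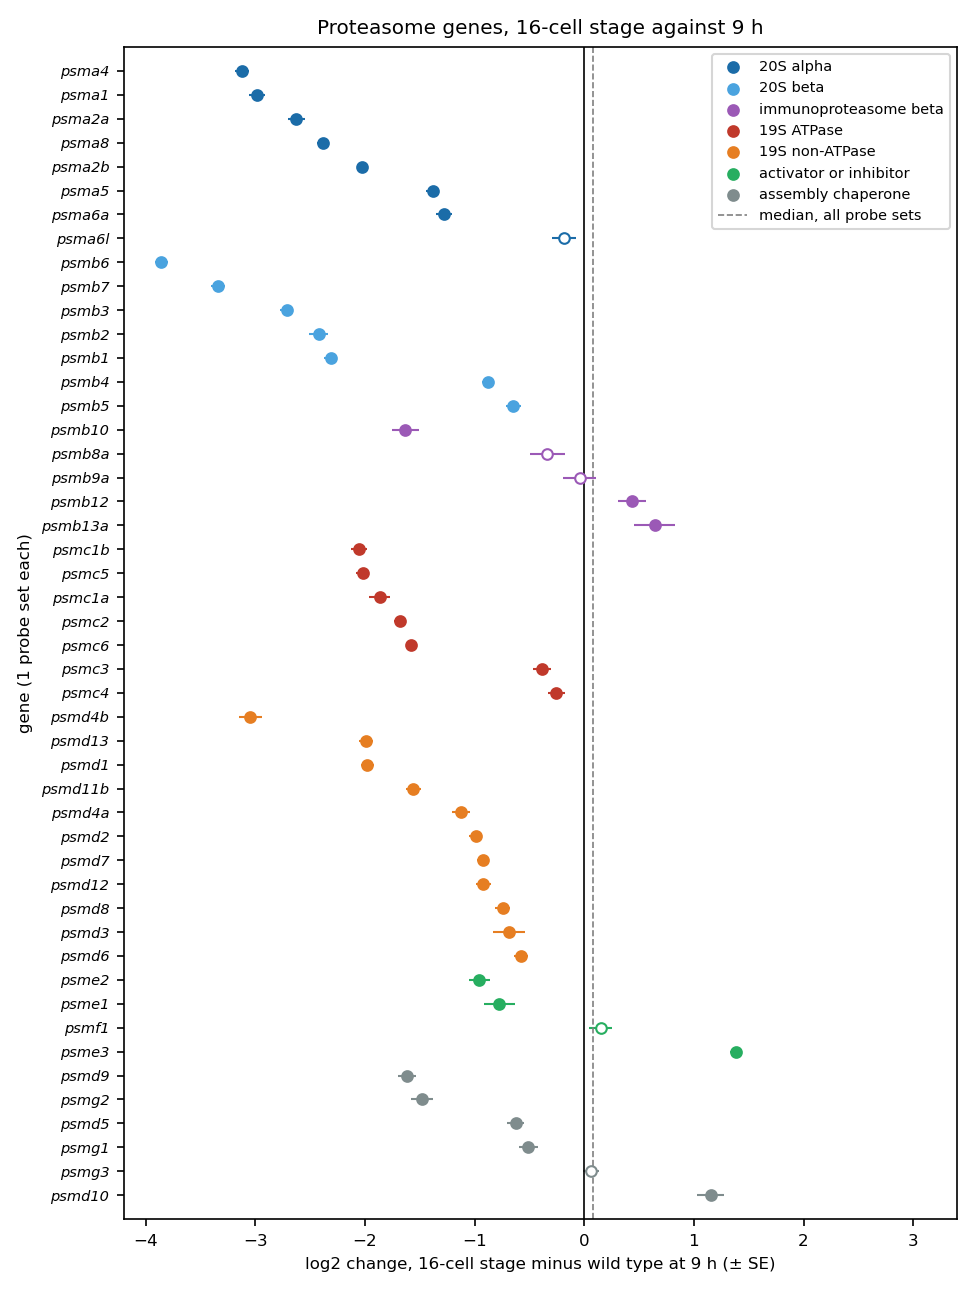
Log2 change of 48 proteasome genes at the 16-cell stage minus wild type at 9 h, 1 probe set a gene, by role. Points show the fitted change and bars the SE, filled points passed an adjusted p of 0.05, and the dashed line is the median of all probe sets (0.08). The 20S and 19S genes lie to the left of 0 (psmc4 to the right of it with median centring), and psme3 and psmd10 lie to the right.

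The largest differences were those of psmb6 and psmb7, catalytic subunits of the beta ring. Psmb6, the caspase-like subunit, had levels of 176 and 169 on the 16-cell arrays, 1984 on the 50% epiboly array and 2779.9, 2835 and 2555 on the 9 h arrays. These groups were far apart, and the mean at 9 h was 15.8 times that at the 16-cell stage (log2 change -3.86 ± 0.059, adjusted p = 9.31e-18). Psmb7, the trypsin-like subunit, read 432 and 429 at the 16-cell stage and 4627, 4549 and 4361 at 9 h, a ratio of 10.5 (log2 change -3.34 ± 0.063, adjusted p = 1.26e-16). Psmb5, the chymotrypsin-like subunit, was already well represented early, with 941 and 973 at the 16-cell stage against 1677, 1429.7 and 1431 at 9 h. Its 9 h mean was 1.58 times the early one (log2 change -0.65 ± 0.068, adjusted p = 2.62e-07), the smallest difference of the constitutive beta genes. By value, the transcripts of the 3 proteolytic subunits of 1 ring thus stood unequally far below their 9 h level. Among the non-catalytic beta genes psmb3, psmb2 and psmb1 had log2 changes of -2.71, -2.42 and -2.31, and psmb4 of -0.88. All 7 constitutive beta genes were lower at the 16-cell stage, with a median of -2.42.

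Of the 8 alpha-ring genes, 7 were lower and the median log2 change was -2.21. Psma4 rose from 282 and 289 at the 16-cell stage to 2822, 2429 and 2584 at 9 h, a 9.15-fold difference (log2 change -3.12 ± 0.065, adjusted p = 3.98e-16). Psma1 read 182 and 181 and then 1591, 1562 and 1496 (log2 change -2.99 ± 0.072, adjusted p = 2.52e-15). The arrays of both genes separate the stages with wide margins, and 39.1% of all probe sets were likewise lower without overlap. The exception was psma6l, a relative of psma6a, with 164 and 159 against 181, 196 and 179.9 (log2 change -0.19 ± 0.11, adjusted p = 0.132). This depended on the scaling, since psma6l was called lower with the intensities as deposited and with median centring. As deposited, psma6l read 137 and 132 against 178, 185 and 172. Its own family member psma6a was lower at the 16-cell stage (-1.28, SE 0.072). The duplicated genes psma2a and psma2b were both lower, with log2 changes of -2.63 and -2.03.

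In the 19S cap all 7 ATPase genes and all 11 non-ATPase genes were lower at the 16-cell stage, with medians of -1.68 and -0.99, except that psmc3, psmc4 and psmd3 lost their calls with median centring (adjusted p = 0.161, 0.271 and 0.0669) and psmc4 then turned to 0.09. Psmc1b, psmc5, psmc1a, psmc2 and psmc6 had log2 changes from -2.06 to -1.58, whereas psmc3 and psmc4 were close to their later level already. Psmc4 read 1322 and 1376 on the 16-cell arrays and 1498, 1719 and 1624 at 9 h (log2 change -0.25 ± 0.074, adjusted p = 0.00581), and psmc3 had a log2 change of -0.39. The psmc4 call was also lost with the intensities as deposited (adjusted p = 0.650) and without 16-cell replicate 1 (adjusted p = 0.0534). By value, then, subunits of 1 ATPase ring stood unequally far below their 9 h level, as did those of the beta ring. Psmd4b, 1 of 2 genes for a ubiquitin receptor of the cap, read 141 and 146 at the 16-cell stage and 1156, 1463 and 1294 at 9 h (log2 change -3.04 ± 0.10, adjusted p = 1.81e-13). Its paralog psmd4a had a log2 change of -1.12 (SE 0.082). The scaffold gene psmd1 and the lid genes psmd13 and psmd11b had log2 changes of -1.98, -1.99 and -1.56, and psmd2, psmd7, psmd12, psmd8 and psmd3 ran from -0.99 to -0.68. The smallest change of the non-ATPase genes was that of psmd6, a lid subunit, at -0.58 (SE 0.061).

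A few genes around the proteasome went the other way. Psme3, the gene of the nuclear activator PA28 gamma that opens the 20S barrel without ubiquitin, read 6059.9 and 6367 at the 16-cell stage, 2298 at 50% epiboly and 2441, 2416 and 2260.4 at 9 h. It was higher in the early embryo by a log2 change of 1.38 (SE 0.053, adjusted p = 7.34e-13). The genes of the other activator, PA28 alpha and beta, were lower at the 16-cell stage, as the core was. Psme1 read 54.1 and 75.8 and then 133, 132 and 101 (log2 change -0.77 ± 0.14, adjusted p = 0.000127), and psme2 had a log2 change of -0.96. The psme1 values are among those that transcripts taken as absent also reach. Psmd10, a chaperone of cap assembly also known as gankyrin, read 649 and 694 at the 16-cell stage, 186 at 50% epiboly and 343, 270.4 and 271 at 9 h (log2 change 1.15 ± 0.12, adjusted p = 2.63e-07). The other cap chaperones psmd9 and psmd5 were lower at the 16-cell stage, with log2 changes of -1.62 and -0.63. Of the chaperones of the alpha ring, psmg2 and psmg1 were lower (-1.48 and -0.51) and psmg3 was not called (log2 change 0.061 ± 0.075, adjusted p = 0.471). In the intensities as deposited psmg3 read 375 and 390 at the 16-cell stage and 316, 303 and 284 at 9 h. The small size of its change thus depended on the scaling. The psmg1 call was lost with the intensities as deposited (adjusted p = 0.0977) and with median centring (adjusted p = 0.549).

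For psmf1, the gene of the inhibitor PI31, the probe sets disagreed in their calls. The dimmer one read 365 and 379 at the 16-cell stage and 81.0, 95.7 and 93.1 at 9 h (log2 change 1.88 ± 0.13, adjusted p = 1.10e-09). The brighter one read 397 and 414 and 346, 365 and 381 and was not called (log2 change 0.15 ± 0.11, adjusted p = 0.202). In the intensities as deposited it read 453 and 482 and then 330, 323 and 346. That gap was wider than after normalisation and in the direction of the dimmer probe set, so its size depended on the scaling. As deposited the dimmer one read 413 and 434 and then 82.1, 97.2 and 94.5. The probe sets thus still differed in the size of their change. The files do not say which part of the transcript each covers. The 3 probe sets of psmc1b also disagreed: the dimmest had a log2 change of 0.088 and was not called, while the 2 brighter ones changed by -1.45 and -2.06. The 4 of psme3ip1 ran from -1.01 to 0.25, with calls in both directions. Both psmc3ip probe sets were higher at the 16-cell stage, by 0.54 and 0.63.

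The immunoproteasome genes encode beta subunits that replace the constitutive catalytic ones in immune cells and after interferon. Psmb8a, psmb9a, psmb12 and psmb13a, which are direct neighbours in GRCz12tu with no other protein-coding gene between them, ranged from 24.8 to 135 over the 15 arrays. Psmb12 and psmb13a were higher at the 16-cell stage (log2 change 0.44 ± 0.13, adjusted p = 0.0056 and log2 change 0.64 ± 0.19, adjusted p = 0.00632). Both calls depended on the scaling. For psmb12, with 98.4 and 108 at the 16-cell stage and 87.5, 62.6 and 67.3 at 9 h, the log2 change was 0.03 with the intensities as deposited (adjusted p = 0.819) and 0.16 with median centring (adjusted p = 0.250), and the call was also lost without 16-cell replicate 2 (adjusted p = 0.0551). The psmb13a values were 61.4 and 69.9 and 38.6, 43.4 and 28.0, and its call was lost with the intensities as deposited (adjusted p = 0.391), with median centring (adjusted p = 0.164) and without 16-cell replicate 2 (adjusted p = 0.0594). Psmb8a and psmb9a were not called. Psmb10, which lies elsewhere, was lower at the 16-cell stage, with 71.6 and 64.8 against 291, 239.8 and 211 (log2 change -1.63 ± 0.12, adjusted p = 4.82e-09).

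**Figure D2:**
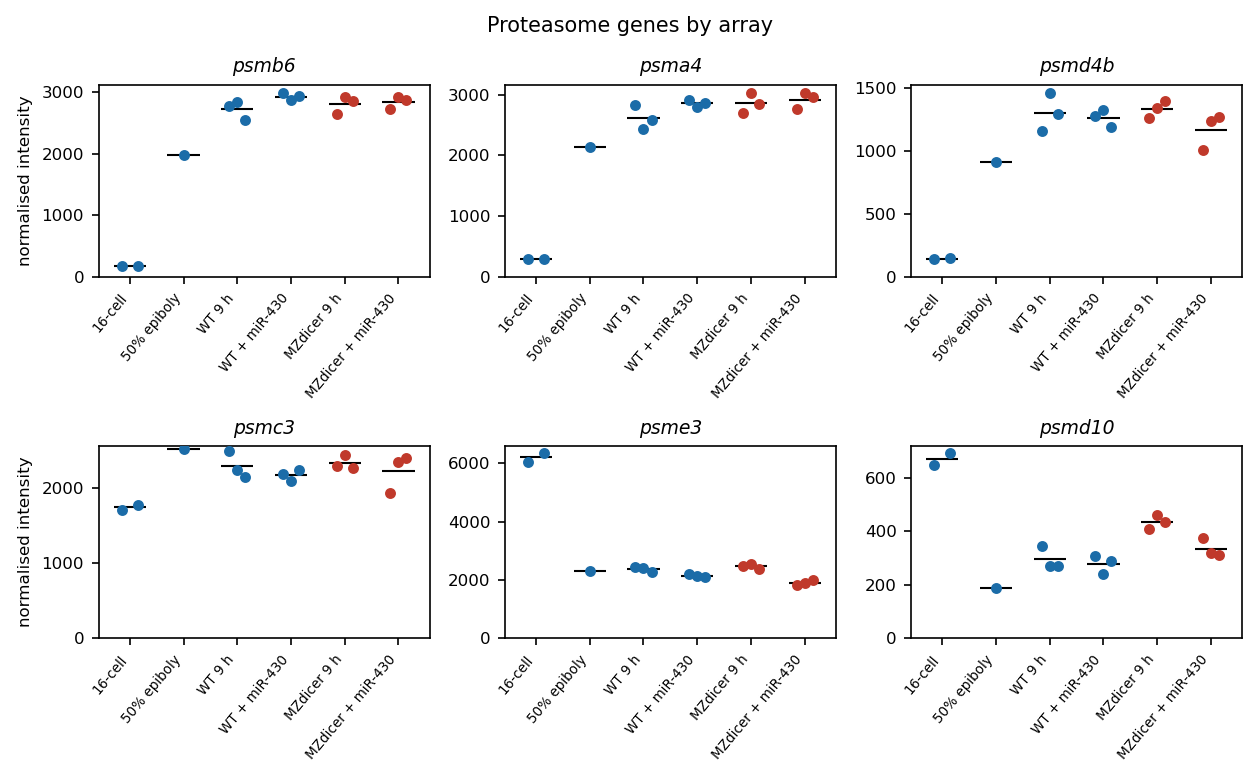
Normalised intensity of 6 proteasome genes on each of the 15 arrays, by group, on linear axes from 0. Each point is 1 array and the black line is the group mean, with wild type in blue and MZdicer in red. Psmb6, psma4 and psmd4b are near the bottom at the 16-cell stage only, psmc3 differs little between stages, and psme3 and psmd10 are highest at the 16-cell stage.

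Most of the difference was already present at 50% epiboly, about the onset of gastrulation. All 33 core genes read higher on it than on both 16-cell arrays, as did 41 of all 48 proteasome genes, against 43.1% of all probe sets. The median log2 difference from the 16-cell mean was 1.47 for the 33 core genes, and a further 0.17 separated 50% epiboly from wild type at 9 h. By value after quantile normalisation, 28 of the 33 rose at both steps and 5 rose and then fell. That split depended on the scaling. As deposited, psma2a read 1641 at 50% epiboly and 1577, 1621 and 1628 at 9 h, and psma2b 1545 and then 1520, 1448 and 1522. Both thus fell at the second step, where they rose after normalisation. The split and the 0.17 were not recomputed under the other scalings. The share of all probe sets with either pattern was not counted, so neither can be called particular to the core genes. Psma1 and psmb1 were among the core genes with much left to gain, at 929 and 1347 on the 50% epiboly array against 1591, 1562 and 1496 and 2171, 1978 and 1889 at 9 h. These are descriptions, since 1 array allows no test. The 16-cell arrays were scanned on another day than the 9 h arrays, so stage and scan day cannot be told apart in the comparison of those groups. The 50% epiboly array shared scan day and fluidics run with the 16-cell arrays. Fluidics run is used here as a name for arrays with the same hybridisation date entry. The middle over 5′ ratio of the GAPDH control probe sets was 0.444 to 0.462 on the 16-cell arrays, 0.716 on the 50% epiboly array and 0.683 to 0.866 in wild type at 9 h. The 3′ over 5′ ratio of GAPDH was 0.313 to 0.429, 0.225 and 0.146 to 0.177 in the same order, and the middle over 5′ ratio of actin was 4.12 to 4.19, 15.1 and 8.7 to 10.9. The part of these ratios in the stage difference was not tested.

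Genes that work with the proteasome were read from a list of 39 names, of which 24 were measured. At the 16-cell stage 15 of the 24 were lower and 6 higher, against 35.6% and 40% of all probe sets. Pomp, the chaperone that matures the 20S core, adrm1, a ubiquitin receptor of the cap, and sem1, its smallest subunit, were lower, with log2 changes of -2.02, -2.62 and -1.97. Rps27a, a ubiquitin gene fused to a ribosomal protein, and ubqln4, a shuttle for ubiquitinated proteins, also were lower (-2.79 and -2.65). The transcription factor gene nfe2l2a read 0, the floor to which values below 0 were set, on both 16-cell arrays and 196, 174 and 190.2 at 9 h. In the other direction, zfand5b, which encodes a proteasome-binding zinc finger protein, and ecpas, which encodes an adaptor of the assembled proteasome, were higher at the 16-cell stage by 2.09 and 1.71.

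Proteasome transcripts differed little between MZdicer and wild type, and in both directions. At 9 h, 16 of the 61 probe sets were higher and 10 lower in MZdicer than in wild type, against 22.3% and 25% of all probe sets. In either direction 42.6% of the members and 47.3% of all probe sets were called. The members' share of lower calls was below that of all probe sets. Their median log2 change was 0.04, compared with -0.07 over all probe sets. At least a 1.5-fold change was seen for 2 called members that were higher (psmc1a and psmc3ip) and 1 that was lower (psmg1), where 10.8% and 6.85% of all probe sets reached that size. Of the 33 core genes 9 were higher and 4 lower, the 4 including psmd12, whose dimmer probe set was called higher. That split depended on the scaling: it was 13 and 4 with the intensities as deposited and 7 and 11 with median centring, and over all probe sets the share of calls that were higher was 47.1%, 65% and 40.6% under the same 3 scalings. Without MZdicer replicate 1 or wild-type replicate 3, 6 members were lower. Uninjected MZdicer and uninjected wild type shared no fluidics run, so genotype and run cannot be told apart in this comparison. The middle over 5′ ratio of the actin control probe sets was 15.4 to 20.4 in uninjected MZdicer, 12.1 to 12.7 in injected MZdicer, 8.7 to 10.9 in uninjected wild type and 8.86 to 10.4 in injected wild type. Its part in the differences by genotype and injection was not tested.

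Within the 19S cap 1 of 7 ATPase genes and 4 of 11 non-ATPase genes were called, with 1 probe set a gene, against 47.3% of all probe sets. Psmc1a, an ATPase gene, read 949, 987 and 865 in wild type and 1497, 1519.6 and 1475 in MZdicer (log2 change 0.67 ± 0.088, adjusted p = 3.98e-05). No MZdicer array overlapped the wild-type range, and 26% of all probe sets were likewise higher without overlap. Its paralog psmc1b was not called with its brightest probe set (log2 change 0.11 ± 0.063, adjusted p = 0.153). Psmd4a, the ubiquitin receptor gene, read 606, 573 and 486 in wild type and 805, 852 and 802 in MZdicer (log2 change 0.56 ± 0.074, adjusted p = 4.93e-05), and its paralog psmd4b was not called (log2 change 0.037 ± 0.10, adjusted p = 0.771). The difference between the members of each pair was not itself tested. Psmd3, a lid subunit gene, read 599, 439 and 458 in wild type and 707, 716 and 679 in MZdicer (log2 change 0.49 ± 0.14, adjusted p = 0.0116), and its call was lost without wild-type replicate 2 (adjusted p = 0.0537). Psmd6 was lower in MZdicer (log2 change -0.32 ± 0.056, adjusted p = 0.00045).

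The probe sets of psmd12, another lid subunit gene, were called in opposite directions. One read 1437, 1485 and 1469.9 in wild type and 1079.8, 1261 and 1113 in MZdicer (log2 change -0.35 ± 0.065, adjusted p = 0.000717). The other read 657, 639.7 and 647 and 842, 859 and 848 (log2 change 0.38 ± 0.10, adjusted p = 0.00577). Each separated the genotypes without overlap, as 26% of all probe sets did upward and 31.8% downward, so no direction can be given for the gene.

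In the 20S core psma8, psma1 and psma2b were higher in MZdicer by 0.39, 0.32 and 0.21, and psmb5, psmb1 and psmb4 by 0.39, 0.28 and 0.14. Psmb7 and psmb3 were lower (-0.25 and -0.17). Psmb5 read 1977, 2036 and 1930.5 in MZdicer against the 9 h values given above, with the groups apart. The psma2b call was lost with median centring (adjusted p = 0.0560). The psmb4 change turned to -0.03 with median centring (adjusted p = 0.563), and its call was also lost on omitting MZdicer replicate 2 or wild-type replicate 2 or 3 (adjusted p from 0.0510 to 0.0989). That of psmb3 was lost without MZdicer replicate 1 or wild-type replicate 2 or 3 (adjusted p from 0.0582 to 0.0958). None of the 5 immunoproteasome genes was called; by limma's unadjusted p, 0 of the 5 was under 0.05.

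All 6 measured assembly chaperone genes differed between the genotypes, 4 of 6 upward and 2 downward with 1 probe set a gene, where 47.3% of all probe sets were called. Psmg1, a member of the pair that starts alpha-ring assembly, read 617, 546 and 554 in wild type and 335, 350.0 and 315 in MZdicer (log2 change -0.75 ± 0.081, adjusted p = 7.74e-06), and its other probe set was also lower (-0.46). Its partner psmg2 was higher (log2 change 0.33 ± 0.092, adjusted p = 0.0103), a call lost without MZdicer replicate 2 or wild-type replicate 3 (adjusted p = 0.0516 and 0.0507). Psmg3, which acts at the same step, read 332, 340.1 and 308 in wild type and 459, 459 and 463 in MZdicer (log2 change 0.48 ± 0.068, adjusted p = 7.99e-05). Of the cap chaperones, psmd10 (0.54) and psmd5 (0.39) were higher, and both psmd9 probe sets were lower (-0.30 and -0.22). Each psmd9 probe set lost its call in 6 of 22 alternatives, among them the intensities as deposited (adjusted p = 0.509 and 0.594) and the omission of 1 array, wild-type replicate 3 or either of MZdicer replicates 1 and 3 (adjusted p from 0.0569 to 0.125), and 1 of them also without wild-type replicate 1 (adjusted p = 0.0940). Among activators and the inhibitor, psme2 was lower (log2 change -0.28 ± 0.086, adjusted p = 0.0161) but not called with the intensities as deposited (adjusted p = 0.520) or on omitting any 1 of MZdicer replicates 1 and 2 and wild-type replicates 2 and 3 (adjusted p from 0.0539 to 0.0699), and the dimmer psmf1 probe set was higher, at 136, 153 and 138 against 81.0, 95.7 and 93.1 (log2 change 0.58 ± 0.12, adjusted p = 0.00142), while the brighter was not called (-0.033). By name only, psmc3ip was higher with its brighter probe set (0.71) and 1 psme3ip1 probe set was lower (-0.33).

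**Figure D3:**
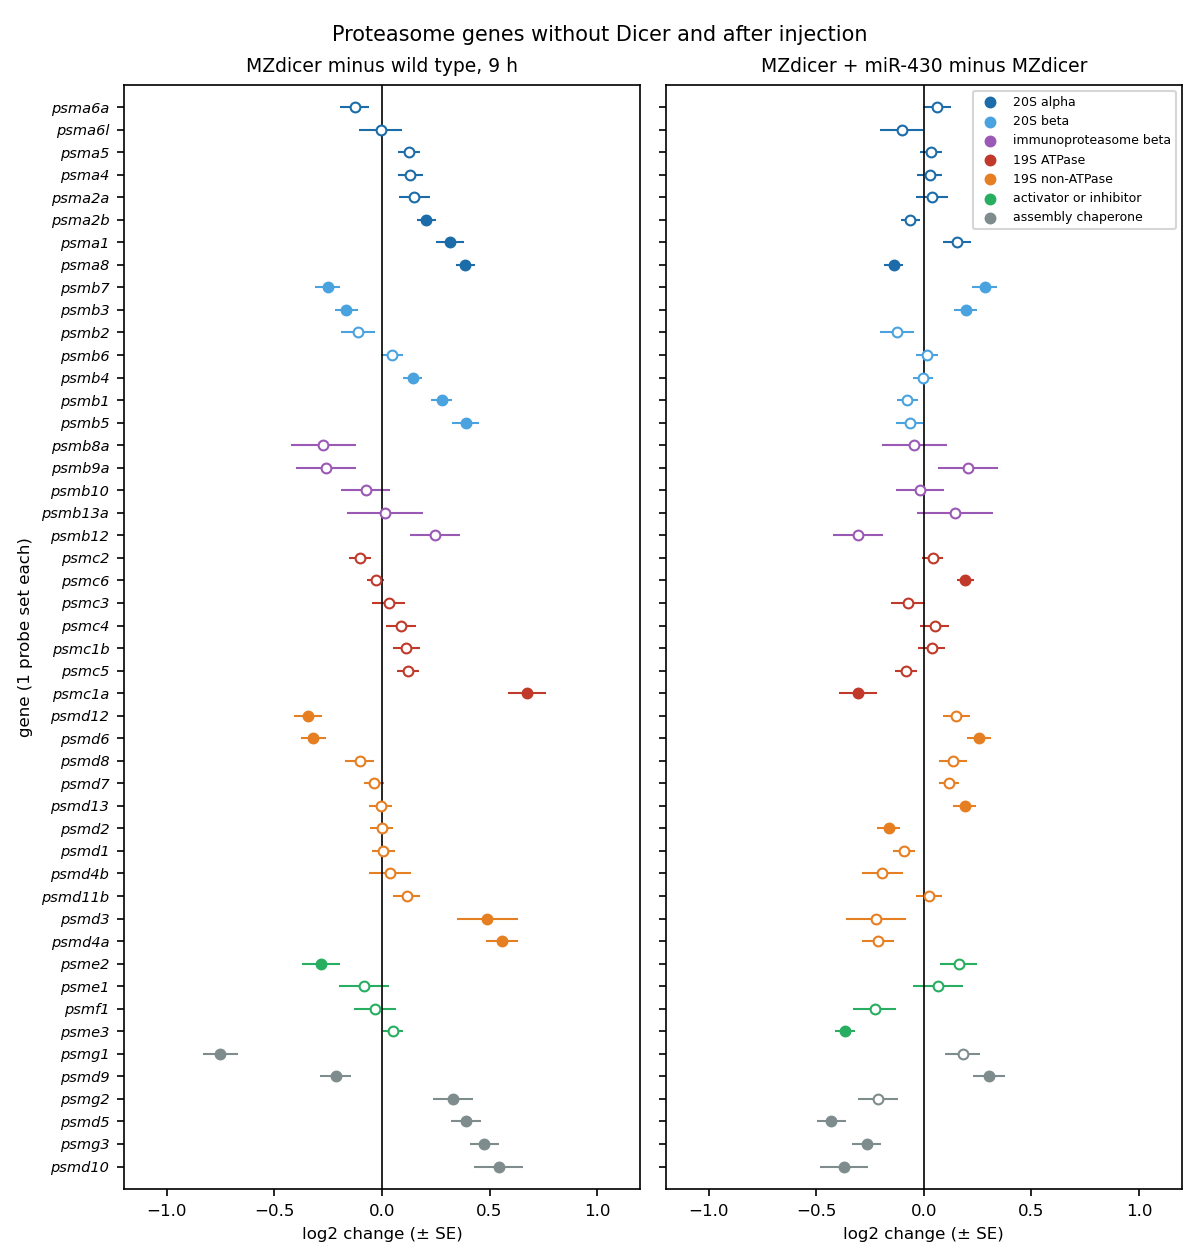
Log2 change of 48 proteasome genes in MZdicer minus wild type at 9 h (left) and in injected minus uninjected MZdicer (right), 1 probe set a gene, in the same order by role. Points show the fitted change, bars the SE, and filled points passed an adjusted p of 0.05. Psmc1a and psmd4a are the highest core genes on the left, and psmg1 is the lowest of all on the left.

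The largest difference of the pathway list between the genotypes was that of uba1, which encodes the enzyme that activates ubiquitin at the start of the cascade. Its levels were 4182, 4056 and 4099 in uninjected MZdicer, 1812, 1857 and 1935 in uninjected wild type and 1749, 1851 and 1809 after injection into MZdicer, so uninjected MZdicer stood apart from both (log2 change 1.13 ± 0.041, adjusted p = 9.81e-10, then log2 change -1.18 ± 0.041, adjusted p = 2.31e-09 on injection). Zfand5a, a paralog of zfand5b, showed the reverse, with 1077, 1109.6 and 1091, 1787, 1646 and 1799.6 and 1927, 1644 and 1538 in the same groups (log2 change -0.67 ± 0.071, adjusted p = 7.14e-06, then log2 change 0.63 ± 0.071, adjusted p = 3.11e-05). Zfand5b (-0.55) and akirin2 (-0.22), needed for import of proteasomes into the nucleus in human cells, were lower in MZdicer. In all, 7 of the 24 measured genes were higher and 9 lower, against 22.3% and 25% of all probe sets.

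After injection of miR-430 into MZdicer embryos 8 of the 61 members were higher and 8 lower, against 12% and 12.6% of all probe sets. The median log2 change was 0.03, and 0.04 over all probe sets. Among the called members the dimmer psmf1 probe set, which was lower, was the only 1 to change at least 1.5-fold, where 4.69% of all probe sets were lower and 2.32% higher by that size. This comparison lay within 1 fluidics run, that is, 1 hybridisation date entry, though the injected and uninjected arrays had different station labels. The first of the 3 injected MZdicer arrays was the lowest of its group for 27 of the 33 core genes, against 38% of all probe sets. Without it 12 members were higher and 6 lower. Leaving out uninjected replicate 1, 2 or 3 left 5, 5 and 4 members lower, and without replicate 1 or 3 of these 5 were higher.

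Among the 33 core genes 5 were higher and 3 lower on injection, against 12% and 12.6% of all probe sets. Psmf1, by its dimmer probe set, read 136, 153 and 138 in uninjected and 60.4, 72.4 and 86.9 in injected MZdicer (log2 change -0.84 ± 0.12, adjusted p = 0.0002), while the brighter was not called (-0.23). Psmd5 went from 555, 585 and 545 to 436, 421 and 384 (log2 change -0.43 ± 0.069, adjusted p = 0.000474), and psme3 from 2459, 2529.9 and 2381 to 1824, 1884 and 2003 (log2 change -0.37 ± 0.048, adjusted p = 9.93e-05). In each of these 3 the arrays of the groups did not overlap, and 18.1% of all probe sets were likewise lower without overlap. Psmd10 (log2 change -0.37 ± 0.11, adjusted p = 0.0296) and psmg3 (log2 change -0.27 ± 0.068, adjusted p = 0.0113) were also lower. The psmd10 call was lost without injected replicate 2 or 3 or uninjected replicate 2 or 3 (adjusted p from 0.0783 to 0.106). Psmc1a was the 1 ATPase gene that fell, from the MZdicer values above to 1017, 1291 and 1344, with injected replicate 1 the lowest (log2 change -0.30 ± 0.088, adjusted p = 0.0224). Without that replicate its log2 change was -0.18 (adjusted p = 0.0408), and the call was lost without any 1 of the uninjected replicates (adjusted p from 0.0540 to 0.0685). The remaining falls were those of psma8 (-0.14) and psmd2 (-0.16), which were called in 12 and 10 of 22 alternatives. Without any 1 of the 3 uninjected replicates or injected replicate 1 or 3 the psma8 call was lost (adjusted p from 0.0566 to 0.105), and without uninjected replicate 1 or 3 or injected replicate 1 or 2 that of psmd2 (adjusted p from 0.0681 to 0.166).

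Rises were small. Psmb7 read 3410.5, 4079.8 and 3896 before and 4361, 4728 and 4742 after injection (log2 change 0.28 ± 0.058, adjusted p = 0.00305), and psmd6 read 1560.1, 1665 and 1623 and 1796, 2058 and 1951 (log2 change 0.26 ± 0.056, adjusted p = 0.00456). Both had been lower in MZdicer than in wild type, as psmd5, psmd10, psmg3, psmc1a and the dimmer psmf1 probe set had been higher. The 2 comparisons share the uninjected MZdicer arrays, so this is a description and not separate evidence. Psmd9 by its brighter probe set (0.30), psmb3 (0.19), psmc6 (0.19), psmd13 (0.19), 1 of the 3 psmc1b probe sets (0.22) and 1 psme3ip1 probe set (0.26) made up the rest. The psmb3 call was lost without injected replicate 1 (adjusted p = 0.0508) or uninjected replicate 1 (adjusted p = 0.0573), that of psmd13 without injected replicate 2 or 3 or uninjected replicate 1 or 3 (adjusted p from 0.0708 to 0.0767), that of psme3ip1 without uninjected replicate 3 (adjusted p = 0.0539), and that of psmc1b under 7 of its alternatives. Of the 24 measured genes of the pathway list 3 were higher and 4 lower, against 12% and 12.6% of all probe sets. Nploc4 (-0.60), a cofactor of the p97 segregase, and the chaperone gene hspa4a (-0.32) were among those that fell.

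In wild type, 8 members were higher after injection and 1 was lower, against 7.3% and 6.74% of all probe sets. The median log2 change was 0.07, and that of all probe sets was -0.0067. Psme1, the PA28 alpha gene, read 133, 132 and 101 in uninjected and 193, 176 and 195 in injected wild type (log2 change 0.57 ± 0.12, adjusted p = 0.00568). Psmd9, by its brighter probe set, read 802, 707 and 749 and 1059.7, 997 and 1194 (log2 change 0.51 ± 0.073, adjusted p = 0.000579), and its other probe set rose by 0.42. The arrays of injected wild type lay above all uninjected ones for both genes, as they did for 16.6% of all probe sets. The core genes psmd13, psmc5, psma8 and psmc6 rose by 0.21, 0.18, 0.17 and 0.13. These 4 core calls depended on the scaling, since 1 core gene was called higher with the intensities as deposited and none with median centring, where 2 were called lower, and none without a mean-variance trend. They were called in 17 (psmd13), 11 (psmc5), 16 (psma8) and 6 (psmc6) of 22 alternatives. Psmc3ip rose by its brighter probe set (0.50), and psmg3 was the 1 member that fell, from 332, 340.1 and 308 to 270.4, 259 and 241 (log2 change -0.33 ± 0.068, adjusted p = 0.00583). Without injected replicate 3 the calls of psmc3ip and of the other psmd9 probe set were among those lost (adjusted p = 0.0867 and 0.0541, the latter lost also without uninjected replicate 2 at 0.0564), and 2 members were higher. Without uninjected replicate 3, 3 were higher. The members called lower numbered 2 without uninjected wild-type replicate 3 or injected MZdicer replicate 3 and 3 without injected MZdicer replicate 1, arrays that share the estimate of spread. Uninjected and injected wild type shared no fluidics run. Of the pathway list ufd1l alone was called, at -0.50 (adjusted p = 0.000864).

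Injected MZdicer embryos differed from uninjected wild type in 15 members that were higher and 5 that were lower, against 16.4% and 15% of all probe sets. These groups shared no fluidics run, so genotype with injection and run cannot be told apart in this comparison. The median log2 change of the members was 0.08, and -0.03 over all probe sets. Psma1 read 1953, 2263 and 2259 in injected MZdicer against 1591, 1562 and 1496 in wild type (log2 change 0.47 ± 0.065, adjusted p = 0.000172). Psmc1a (log2 change 0.37 ± 0.088, adjusted p = 0.00677) and psmd4a (log2 change 0.34 ± 0.074, adjusted p = 0.00387) were higher as well, and psmb5 was higher by 0.32. Psmg1 remained lower by its brighter probe set, at 340.4, 399 and 404 (log2 change -0.57 ± 0.081, adjusted p = 0.000212). Psme3, which had not differed by a call between the uninjected genotypes, was lower (log2 change -0.32 ± 0.048, adjusted p = 0.00033). The psmd12 probe sets were again called in opposite directions (-0.19 and 0.35), psmb2 (-0.24) and psmd2 (-0.16) were lower, and psmc3ip was higher by its brighter probe set (0.69). The calls of psmb2, psmd2 and the lower psmd12 probe set were lost without injected replicate 1 (adjusted p = 0.109, 0.0541 and 0.109), which left 2 members lower. Without uninjected wild-type replicate 1, 2 or 3, 3, 2 and 3 members were lower. The call of the higher psmd12 probe set was lost without injected replicate 2 or 3 (adjusted p = 0.0601 and 0.0668). Of the 33 core genes 11 were higher and 3 lower, the 3 including psmd12 by its brighter probe set. With median centring 4 were higher and 6 lower. Of the pathway list 2 were higher and 7 lower, with zfand5b (-0.40), the ubiquitin gene ubb (-0.28), the shuttle gene rad23b (-0.37) and the deubiquitinase gene uchl5 (-0.39) leading.

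The interaction asks whether injection acted differently in MZdicer than in wild type, as the difference between the 2 injection changes. The wild-type change within it compares groups that shared no fluidics run, so injection and run cannot be told apart there. The interaction was called for 7 members, 1 upward and 6 downward, against 10.7% and 12% of all probe sets. Their median log2 value was -0.05, and 0.04 over all probe sets. The count of 1 upward was 0 without any 1 of 7 arrays, 3 without uninjected MZdicer replicate 2 and 6 without injected MZdicer replicate 1, and the count downward was 10 without uninjected wild-type replicate 1. Psmf1, by its dimmer probe set, read 75.0, 91.2 and 88.1 in injected wild type against 81.0, 95.7 and 93.1 in uninjected wild type, so the fall in MZdicer had no counterpart that passed the test there (log2 change -0.76 ± 0.17, adjusted p = 0.00559). The brighter psmf1 probe set was not called in the interaction (-0.14). Psmd5 read 479, 486 and 457 in injected and 432, 399 and 444 in uninjected wild type (log2 change -0.58 ± 0.10, adjusted p = 0.000885). The psmd5 interaction was called under each of its 21 alternatives, and that of the dimmer psmf1 probe set under each of its 20.

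Psme1 had the opposite origin, with the rise in wild type and levels of 117, 118 and 106 in uninjected and 125, 103 and 133 in injected MZdicer (log2 change -0.51 ± 0.17, adjusted p = 0.0428). It was called in 11 of 21 alternatives. Psma8 read 2746, 2707 and 2549 and 3008, 2964 and 3048 in uninjected and injected wild type, and 3530.1, 3467 and 3483 and 2977, 3319.9 and 3216 in MZdicer (log2 change -0.31 ± 0.063, adjusted p = 0.00327). Its changes on injection were called in both genotypes, in opposite directions, the wild-type call being 1 of the 4 that depended on the scaling. The MZdicer call was lost on omission of single arrays, as given above. Psmc5 (log2 change -0.27 ± 0.073, adjusted p = 0.019), psme3 (log2 change -0.21 ± 0.068, adjusted p = 0.0373) and psmd7 (log2 change 0.20 ± 0.065, adjusted p = 0.0397) had smaller values, and psme3 and psmd7 were called in 10 and 9 of 21 alternatives. The interaction calls of psma8 and psmc5 did not hold under every alternative either. Of the 24 measured genes of the pathway list 5 were higher and 3 lower in the interaction, against 10.7% and 12% of all probe sets. These were led by uba1 (log2 change -1.19 ± 0.058, adjusted p = 1.55e-07), zfand5a (0.46), hspa4a (-0.39) and zfand5b (0.36).

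**Figure D4:**
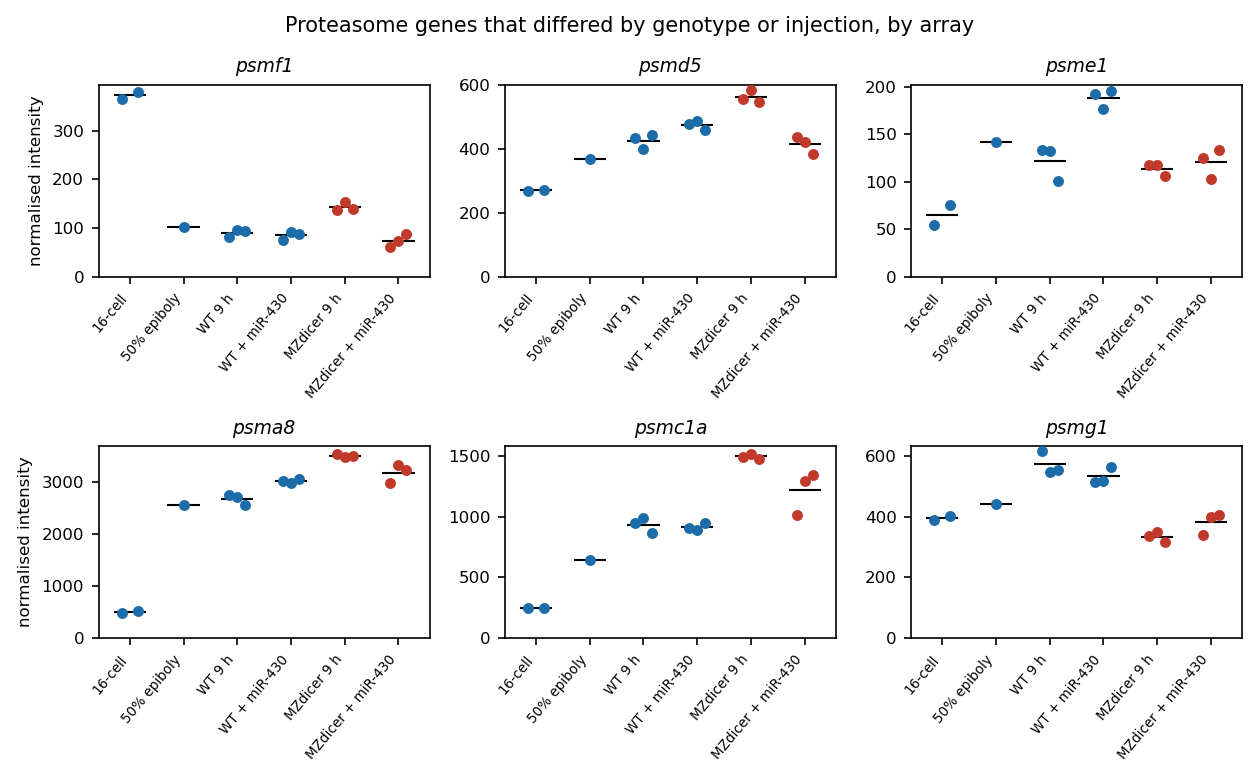
Normalised intensity of 6 proteasome genes on each of the 15 arrays, by group, on linear axes from 0; psmf1 and psmg1 are each shown by 1 of their 2 probe sets. Each point is 1 array and the black line is the group mean, with wild type in blue and MZdicer in red. Psmf1, psmd5 and psmc1a are higher in uninjected MZdicer than in uninjected wild type and lower after injection, psme1 is highest in injected wild type, and psmg1 is lower in MZdicer.

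Set beside the difference between stages, the differences by genotype and injection were small for the core, as they were over all probe sets. Over the 33 core genes the log2 change between the 16-cell stage and 9 h ran from -3.86 to -0.19. It ran from -0.35 to 0.67 between the genotypes, from -0.30 to 0.28 on injection in MZdicer and from -0.24 to 0.47 in injected MZdicer against wild type. The -0.35 was that of psmd12 by its brighter probe set, whereas its other probe set was higher (0.38). Of all probe sets, 21% were called at least 2-fold higher and 19.4% at least 2-fold lower at the 16-cell stage. These shares were 4.62% and 1.77% in MZdicer and 0.252% and 1.45% on injection in MZdicer, so the contrast is not particular to the core. Within the 9 h and injected groups the median coefficient of variation of the core genes was 3.28% to 6.09%.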

How the data were processed

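The deposited table gives 1 intensity per probe set and array on a linear scale. The summarising of probes, the background correction and the scaling done by the authors are not given in the sources used here; per the labels, 2 µg of total RNA was labelled with biotin. Precision is limited by the number of arrays. The intensities were quantile normalised over all 15 arrays, values below 0 were set to 0 (no member had one), and log2(intensity + 16) was analysed, which understates changes of dim transcripts. Tests came from limma 3.58.1 in R 4.3.3, with the prior variance following mean intensity. The p-values were adjusted over 15502 probe sets (Benjamini-Hochberg). The 16-cell comparison used all 15 arrays (9 residual degrees of freedom) and the others the 12 arrays of the genotype and injection groups (8). The fit was tested on simulated data with independent noise and no batches. That test therefore does not bear on groups that differ in scan day, fluidics run or station. Scan day, hybridisation date and station, per the file headers of the array information files, were used only as batch labels. Arrays with the same hybridisation date entry are called a fluidics run here.

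Role classes follow the gene symbols, and a gene count uses the probe set of highest mean. The members and gene lists were chosen with earlier results of these data known. Text names up to 6 called rises and 6 falls per comparison, the extremes of each role class between stages, genes whose probe sets disagree, all interaction calls, and up to 8 (stage) or 4 pathway genes by smallest p. Further members are named after their values were seen, and each member's call, but not those of the pathway genes, was run under the alternatives. Same-numbered arrays did not deviate together (18 correlations, -0.229 to 0.259, 2 over 0.1), so replicate numbers were not taken to pair samples.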

Additional observations from a re-analysis of the deposited data

Results flagged for a closer look

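In 7 members the change after injection differed between MZdicer and wild type by the interaction test of limma. The differences of the log2 changes, MZdicer minus wild type, were -0.765 for psmf1 (1 of 2 probe sets), -0.581 for psmd5, -0.507 for psme1, -0.313 for psma8, -0.265 for psmc5, -0.215 for psme3 and 0.204 for psmd7. The members' share of such calls was below that of all probe sets (22.6%). No control injection was described and no age given for the injected embryos, so what these calls follow was not tested.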

How the results depend on the processing

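The calls that passed under each alternative run numbered 44 of 54 for the 16-cell comparison, 17 of 26 for MZdicer, 7 of 16 for injection in MZdicer, 2 of 9 for injection in wild type, 8 of 20 for injected MZdicer and 2 of 7 for the interaction. With median centring psmc4 turned from -0.25 to 0.091 (adjusted p = 0.271) at the 16-cell stage and psmb4 from 0.14 to -0.034 (adjusted p = 0.563) in MZdicer. For the 16-cell comparison the members' median was -0.80 with median centring, -0.89 with a pseudocount of 64, -1.38 without the dimmest 40% of probe sets, -1.07 with 1 probe set a gene and -1.12 without psme3ip1 and psmc3ip, and those called higher numbered 3, 5 and 5 under the last 3. The median 50% epiboly difference from the 16-cell mean was 0.91 over all 61 member probe sets, and 0.75 with median centring. With the intensities as deposited, 6 members were lower in MZdicer, 4 higher on injection in MZdicer, 5 higher on injection in wild type and 3 lower in injected MZdicer. With median centring, 16 were lower in MZdicer, 4 higher and 4 lower on injection in wild type, 8 higher and 8 lower in injected MZdicer, and 5 higher in the interaction, whose median was 0.038. Without a mean-variance trend, 5 were higher on injection in MZdicer, 4 on injection in wild type and 0 in the interaction, and 2 were lower in injected MZdicer. Without the dimmest 40%, 2 were lower on injection in wild type. With the replicate block, 3 were lower in injected MZdicer and 0 higher in the interaction. With scan day as a block, 3 were lower in injected MZdicer and 10 in the interaction. In these fits only uninjected wild-type replicate 1 was scanned on another day, so the block acts as its omission and is no separate check. The numbers of alternatives given above count both. With fluidics run as a random block 2 were lower in injected MZdicer. With only the arrays compared, 8 were higher and 2 lower there. With intensities as deposited, 1 psme3ip1 probe set turned at the 16-cell stage from 0.25 to -0.0025 (adjusted p = 0.986). The cause of these shifts was not tested.

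Leaving out each array in turn gave 5 to 8 members higher at the 16-cell stage, 6 to 12 lower in MZdicer, 5 to 12 higher and 4 to 10 lower on injection in MZdicer, 2 to 10 higher and 1 to 3 lower on injection in wild type, 2 to 6 lower in injected MZdicer, and 0 to 6 higher and 4 to 10 lower in the interaction. The share of all calls that were higher moved with the scaling (quantile, as deposited, median centring) from 48.7% to 38.6% and 49.3% on injection in MZdicer, from 52% to 56.7% and 40.8% on injection in wild type, from 52.3% to 68.9% and 44.2% in injected MZdicer, and from 47.2% to 35.1% and 53.8% in the interaction. Scan day as a block could not be run for the 16-cell comparison, since day and stage coincide, and the interaction has no fit of fewer groups. The alternatives without psme3ip1 and psmc3ip and without the 50% epiboly array were chosen after seeing the data.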
